A study of Mus musculus with 8 samples.

Results

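Collagen chain genes were followed in mouse embryonic fibroblasts (MEFs) on 1-colour microarrays while c-Src was induced. The members were the probes, controls left out, whose gene name on the array consists of Col, a type number, the letter a and a chain number. They were 63 of the 55681 probes and named 41 genes. A probe was described when the scanner software flagged it well above background on both arrays of at least 1 time, which held for 33 probes and 27 of the 41 genes. Those 27 were among 20839 genes tested. All arrays carried RNA of Csk-/- MEFs transfected with pBKT2-c-Src, a vector that expresses c-Src when doxycycline is given. The groups were 0 h, and 6, 24 and 72 h with 1 μg/ml doxycycline, with 2 arrays each and 8 in all. The 0 h cells lack Csk too, a kinase that holds Src family kinases inactive, and also carry the vector. Cells with Csk, and cells given doxycycline without the vector, were not analysed here, so c-Src and doxycycline cannot be told apart. The labels do not say whether the transfected cells were 1 clone, or that the arrays of a time are of different cultures, and the p-values rest on a spread between arrays that may be technical only.

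Collagens are matrix proteins built from chains that wind around each other into a helix. Chains of the fibrillar types I, II, III, V, XI, XXIV and XXVII pack into fibrils, and type IV forms the network of basement membranes. Type VI forms beaded filaments, and the FACIT types (fibril-associated collagens with interrupted helices) sit on fibril surfaces. Fibroblasts are known as a main source of types I, III, V and VI. Lower collagen synthesis after Src transformation is known from chick fibroblasts. Probe positions below are those of the array's own annotation on mm9, which gives no exons.

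The array's 75th percentile of signal, by which every level below is divided, lay between 370.3 and 393, and 49.9% to 54.7% of spots were well above background with 0 saturated. All arrays lay on 1 slide, where the time follows the position along it, so time and position cannot be told apart. Src itself was at 0.393 and 0.437 at 0 h, 11.03 and 11.26 at 6 h, 9.81 and 9.92 at 24 h, and 8.15 and 8.12 at 72 h, and was 19.6-fold higher at 72 h than at 0 h (limma, adjusted p = 6.28e-06). Of 13 fibroblast markers 10 could be tested, among them Pdgfra, Pdgfrb, Vim and Twist1 on all arrays, while Thy1, Fap and Prrx1 were too dim. At 72 h 2 of these 10 were higher (Vim and Twist1) and 8 were lower, of which Col1a1, Col1a2 and Col3a1 are members here. Of all genes tested 52% were called at 72 h, 27.5% higher and 24.6% lower. At 24 h 41.5% were called, 21.4% higher and 20.1% lower. The calls of the other markers below stand beside these shares. Epithelial markers summed to 5.25 and 5.07 at 72 h, against 3.13 and 3.90 at 0 h, with 5 of 8 testable (Epcam, Cdh1 and Cldn4 too dim), of which Krt8 and Krt18 were higher and Krt19 and Esrp1 lower. Osteoblast markers, with 3 of 6 testable and Bglap, Ibsp and Dmp1 too dim, summed to 0.428 and 0.436 at 72 h, against 1.42 and 1.35 at 0 h, with Alpl and Sp7 lower and Runx2 higher. Chondrocyte markers, with 5 of 8 testable and Acan, Matn1 and Col10a1 too dim, summed to 0.906 and 0.918 at 72 h, against 0.846 and 0.869 at 0 h, with Sox9 higher and Comp and the member Col2a1 lower. Endothelial markers, with 3 of 6 testable and Cdh5, Tie1 and Emcn too dim, summed to between 2.21 and 2.45 on all arrays, of which the mean of Kdr, not called, made up 2.09 at 0 h. The dimmer endothelial marker Tek was well above background on neither array at 72 h and was at least 2.71-fold lower (adjusted p = 0.00137). Macrophage markers, with 4 of 7 on the array testable and Ptprc, Adgre1 and Lyz2 too dim, summed to between 16.5 and 18.3, mostly from Itgam, which was not called and averaged 15.9 at 72 h and 16.1 at 0 h. Of the other macrophage markers Csf1r, Cd68 and Cd14 were higher at 24 h and Csf1r and Cd68 at 72 h. Csf1r was at a mean of 1.38 at 72 h and 1.022 at 0 h (limma, adjusted p = 0.00535). Cd68, not well above background on either array at 0 h, was at least 2.92-fold higher at 72 h (adjusted p = 0.000133). Skeletal muscle markers, with 2 of 6 testable and Myod1 and Myog among the dim ones, summed to 2.14 and 2.06 at 72 h, against 1.102 and 1.089 at 0 h, with Acta1 higher. Adipocyte markers, with 2 of 6 testable and Adipoq and Plin1 among the dim ones, summed to 1.83 and 1.93 at 72 h, against 0.7495 and 0.7221 at 0 h. Of them Fabp4 was higher at a mean of 1.67 at 72 h and 0.444 at 0 h, and Pparg was lower at 0.214 at 72 h and 0.292 at 0 h (adjusted p = 0.000185 and 0.00166). The part of other cell types in the results below was not tested, and in bulk RNA fewer cells of a type and less RNA per cell cannot be told apart.

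Collagen chain genes were mostly lower at 24 and 72 h than at 0 h. At 24 h 3 of the 27 rose and 16 fell (limma, adjusted p under 0.05 over all genes tested), that is 70.4% called, against 41.5% of all genes tested called, 21.4% higher and 20.1% lower. At 72 h again 3 rose and 16 fell, against 52% of all genes called, 27.5% higher and 24.6% lower. At 6 h 1 member fell and 0 rose, against 17.6% of all genes called, 10.3% higher and 7.24% lower. The median log2 difference from 0 h over the 27 genes was -0.12 at 6 h, -0.58 at 24 h and -0.73 at 72 h, and over all genes tested 0.00, -0.02 and 0.00. The collagen median was below 0 at each of these times under each scaling tried. Scaling to the array median moved the median of all genes up to 0.06, 0.13 and 0.18. That of the collagen genes was then -0.07, -0.43 and -0.55. Normexp correction, described with Col2a1 below, put the collagen median at -0.10, -0.27 and -0.39 and that of all genes at 0.01, -0.01 and 0.01. The size of the collagen median at 24 and 72 h thus depended on the processing. The 3 genes that rose at 24 and 72 h were Col7a1, Col8a1 and Col17a1, none of them a fibrillar, type IV or type VI chain. These comparisons share the 0 h arrays. With 2 arrays per time, lack of overlap with 0 h was common. It held for 13057, 14553 and 16267 of the 20839 genes tested at 6, 24 and 72 h. Among the 27 members it held for 20, 24 and 24. Of the 27 genes 21 were well above background on both arrays of every time, and the other 6 passed the filter through some times only: Col8a2, Col27a1 and Col23a1 through 0 and 6 h, Col11a2 through 0 h, Col17a1 through 24 and 72 h, and Col4a4 through 0 and 72 h. A gene that passed only through the times where it is high was bound to differ, so the calls of Col8a2, Col27a1 and Col17a1 are descriptions, as is that of Col4a4 between 24 and 72 h. The same holds outside the members for the calls of Tek and Cd68 above and of Lum, Mmp15 and, at 72 h, Mmp8 below. These genes were not well above background on arrays of the time where they were lower. When only genes well above background on all arrays were fitted, 2 of 21 members rose and 14 fell at 24 h, against 45% of 18852 genes called, 23.5% higher and 21.5% lower. At 72 h the numbers were again 2 and 14, against 55.8% called, 30.1% higher and 25.8% lower.

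**Figure D1:**
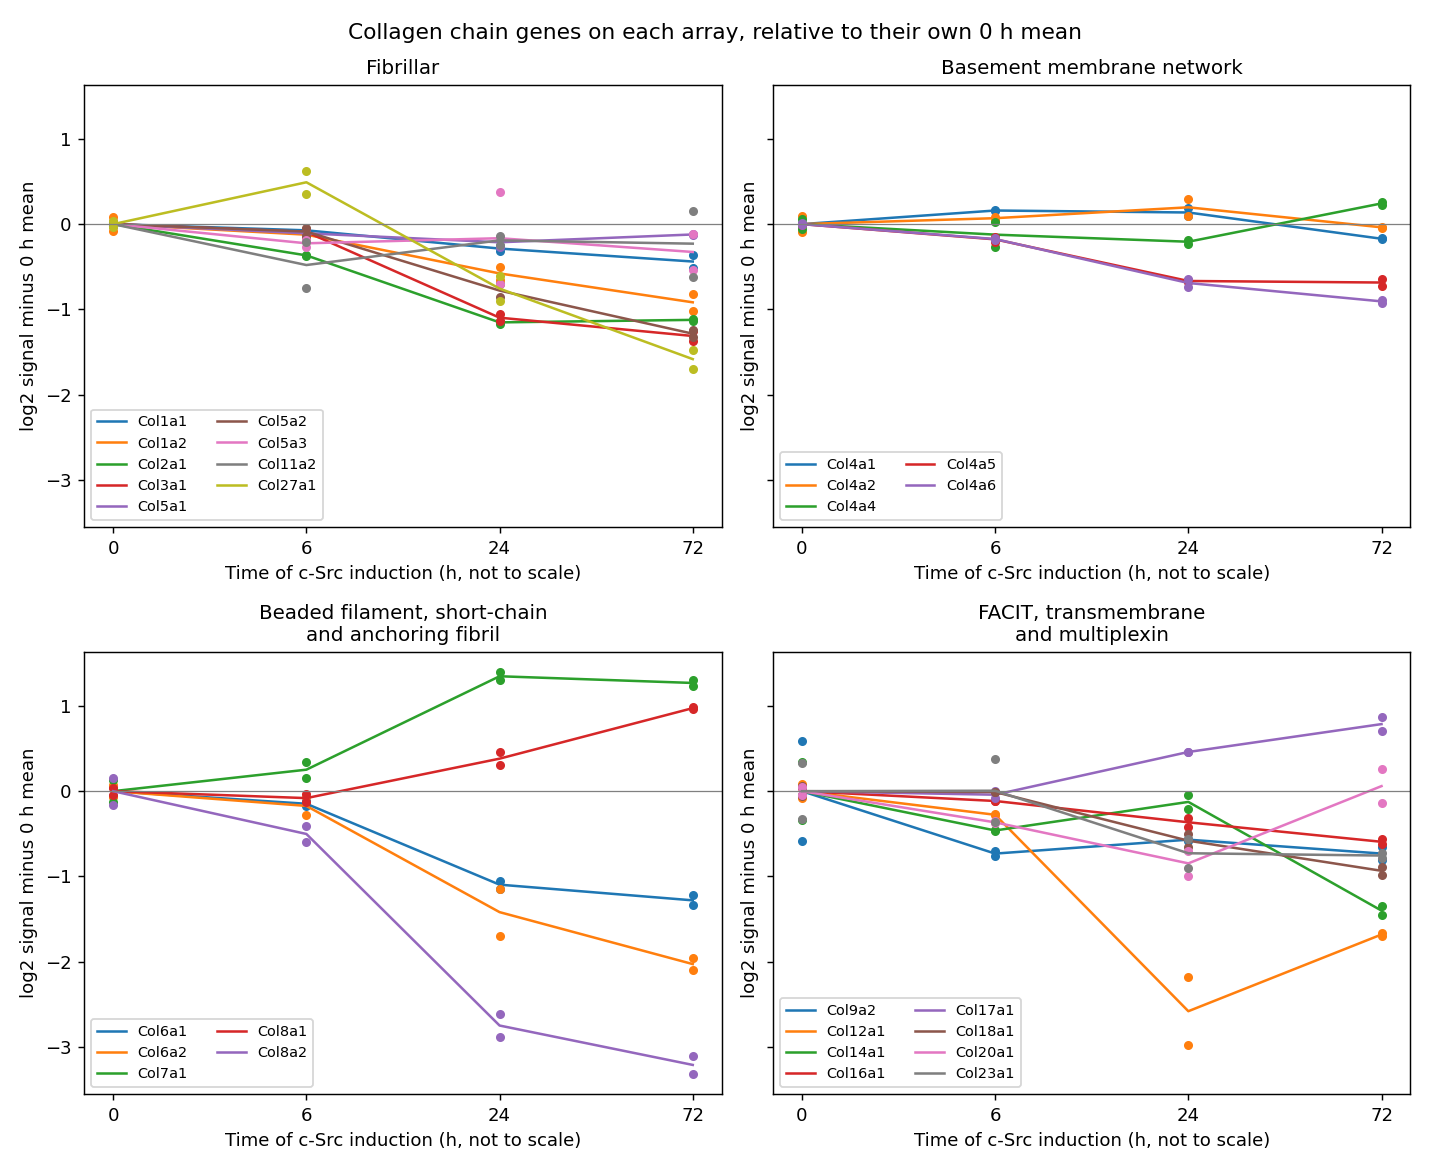
Log2 signal of each of the 27 collagen chain genes minus its own mean at 0 h, by time of c-Src induction in hours (not to scale). Points are arrays, 2 per time, and lines join the means. Most lines lie near 0 at 6 h and below 0 at 24 and 72 h, and the lowest line is Col8a2, at -3.21 at 72 h. The lines of Col7a1, Col8a1 and Col17a1 end above 0, as do those of Col4a4 and Col20a1, at 0.24 and 0.06, which were not called.

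**Figure D2:**
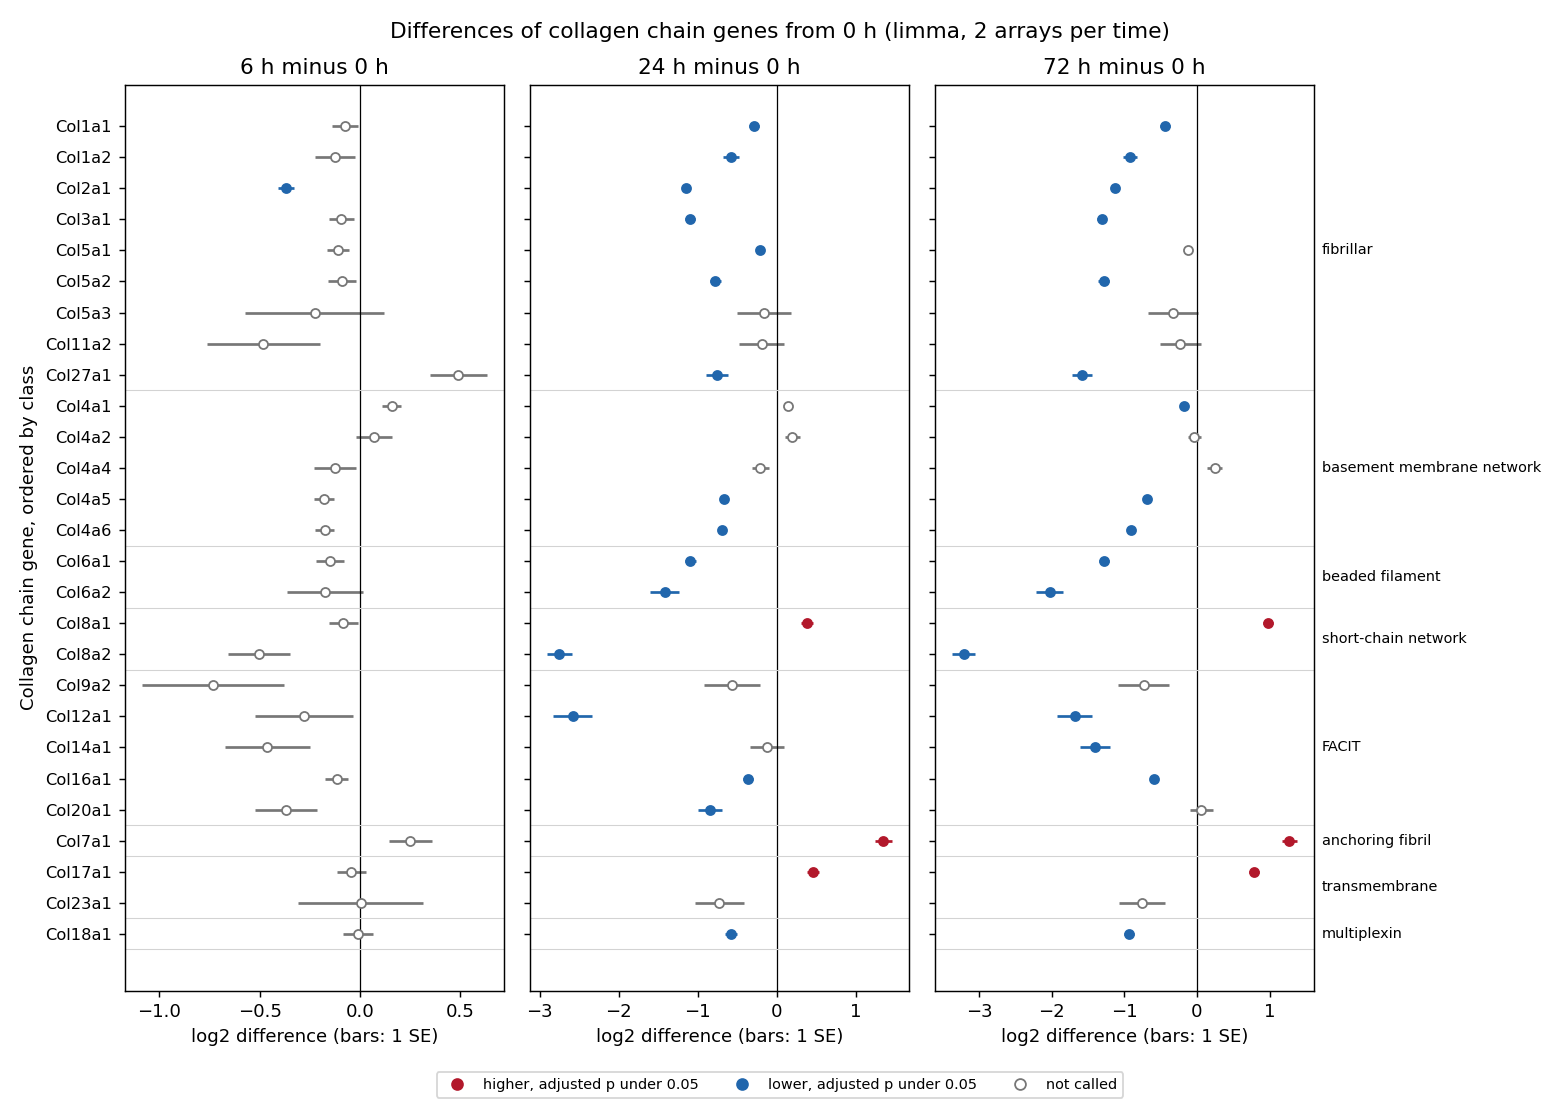
Log2 difference from 0 h of each collagen chain gene at 6, 24 and 72 h by limma, with bars of 1 standard error, ordered by class. Filled points passed an adjusted p of 0.05, 1 gene at 6 h and 19 genes at each of the later times.

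Among fibrillar chains, 9 of 11 genes were measured, and 7 fell at 24 h and 6 at 72 h, with 0 higher, that is 77.8% and 66.7% called, against 41.5% and 52% of all genes. Those numbers include Col27a1. The main fibril chains are those of collagen I, the most abundant collagen of skin and bone, and of collagen III, which is laid down with it in extensible tissue. Col1a1 (chr11:94813115-94813174) was at 164 and 159.7 at 0 h, 154 and 154 at 6 h, 129.9 and 136 at 24 h, and 113 and 126 at 72 h. Its arrays at 24 and 72 h all lay below those at 0 h, with a log2 difference of -0.29 ± 0.06 (SE) at 24 h (adjusted p = 0.0162) and -0.44 ± 0.06 at 72 h (adjusted p = 0.00261). The call at 24 h was lost without replicate 1 or without replicate 2 of 0 h and without replicate 1 of 24 h (adjusted p = 0.0747, 0.0524 and 0.0691), and median scaling gave -0.14 at 24 h and -0.26 at 72 h. Its partner chain Col1a2 was at 0.846 and 0.757 at 0 h, 0.756 and 0.713 at 6 h, 0.564 and 0.509 at 24 h, and 0.395 and 0.454 at 72 h, so both later times lay below 0 h on every array. Its log2 difference was -0.58 ± 0.10 at 24 h (adjusted p = 0.00609) and -0.92 ± 0.10 at 72 h (adjusted p = 0.000804), 1.89-fold lower, and median scaling left -0.43 at 24 h with an adjusted p of 0.0542. Whether the chains of collagen I differ in their change was not tested.

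Col3a1 (chr1:45405589-45405648) was at 80.3 and 82.0 at 0 h, 77.9 and 74.5 at 6 h, 39.1 and 36.8 at 24 h, and 31.4 and 34.0 at 72 h. The groups did not overlap, and most of the difference lay between 6 and 24 h, where Col3a1 was 2.01-fold lower at 24 h (adjusted p = 0.00075). Against 0 h it was 2.14-fold lower at 24 h (adjusted p = 0.000188) and 2.48-fold lower at 72 h (adjusted p = 6.2e-05).

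Collagen V is a minor fibril component that sets fibril diameter, and its chains were unlike each other. Col5a2, the neighbour of Col3a1 on chromosome 1, was at 8.44 and 8.72 at 0 h, 7.82 and 8.35 at 6 h, 4.75 and 5.26 at 24 h, and 3.43 and 3.61 at 72 h. It was 1.72-fold lower at 24 h (adjusted p = 0.000692) and 2.44-fold lower at 72 h than at 0 h (adjusted p = 8.98e-05), with the 72 h arrays also below those of 24 h. Col5a1 was at 5.90 and 5.71 at 0 h, 5.27 and 5.50 at 6 h, 5.19 and 4.83 at 24 h, and 5.30 and 5.37 at 72 h. Its log2 difference of -0.21 ± 0.05 at 24 h passed the test (adjusted p = 0.025) and that of -0.12 ± 0.05 at 72 h did not (adjusted p = 0.112). The call at 24 h was lost under 8 settings, among them each of leaving out 0 h replicate 1 (adjusted p = 0.108), 0 h replicate 2 (0.0621), 24 h replicate 2 (0.091), and 72 h replicate 1 or replicate 2 (0.0503 for both), and under median scaling the difference was -0.06. Col5a3 was at 0.236 and 0.228 at 0 h, 0.193 and 0.204 at 6 h, 0.142 and 0.300 at 24 h, and 0.160 and 0.214 at 72 h, passed no test and had replicates at 24 h that enclosed its 0 h values. Its log2 difference at 24 h was -0.17, and -0.70 without replicate 2 of 24 h. Over all settings it ran from -0.70 to 0.37.

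The cartilage chain Col2a1 was the member called at 6 h. Its levels were 0.552 and 0.558 at 0 h, 0.431 and 0.430 at 6 h, 0.253 and 0.246 at 24 h, and 0.252 and 0.257 at 72 h, with replicates close together and no overlap with 0 h at any later time. It was 1.29-fold lower at 6 h (adjusted p = 0.0049, and 0.0607 under median scaling), 2.22-fold lower at 24 h (adjusted p = 7.42e-05) and 2.18-fold lower at 72 h (adjusted p = 4.03e-05). With normexp background correction, an alternative that adds an offset and so pulls dim probes together, its log2 difference at 72 h was -0.74 in place of -1.12. The chondrocyte transcription factor gene Sox9, on the chondrocyte marker list, was 9.17-fold higher at 24 h than at 0 h (adjusted p = 3.54e-05), the direction opposite to that of Col2a1.

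Col27a1, a fibrillar chain known from cartilage, was dim, at 0.0979 and 0.0930 at 0 h, 0.122 and 0.147 at 6 h, 0.0625 and 0.0510 at 24 h, and 0.0344 and 0.0294 at 72 h. It was above 0 h on both arrays at 6 h (log2 difference 0.49 ± 0.14, adjusted p = 0.0684) and below it at 24 h (-0.76 ± 0.14, adjusted p = 0.00859). At 72 h it was not well above background on either array and was at least 2.72-fold lower (adjusted p = 0.00043, for a gene that passed the filter only through 0 and 6 h). Such a bound sets the mean of the bright group against a mean that takes, on each dim array, the higher of the probe's own signal and the lowest signal among probes well above background. For every bound given here, the adjusted p beside it is that of the limma difference between the signals themselves, not of the bound. Normexp correction gave log2 differences of -0.26 at 24 h and -0.38 at 72 h for Col27a1. Col11a2, at 0.0367 to 0.0686 over all arrays and well above background on 5 of 8, passed no test.

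Type IV collagen genes lie head to head in the genome, each pair on opposite strands from a shared upstream region, and 5 of the 6 genes were measured. Collagen IV of alpha 1 and alpha 2 chains is the form of nearly all basement membranes, and that with alpha 5 and alpha 6 is known from smooth muscle and some epithelia. Col4a1 and Col4a2 did not fall at 24 h, whereas Col4a5 and Col4a6 fell at 24 and 72 h. The start regions of both pairs are shown because each pair shares its upstream DNA. RefSeq (GRCm38.p6) places the starts of Col4a1 and Col4a2 21 bases apart, on the minus strand with the window chr8:11312777-11313076 and on the plus strand with the window chr8:11312555-11312854. Each window runs from 250 bases before the start to 50 after it. The 78 bases that both windows hold, read from opposite strands, are in capitals.
Col4a1: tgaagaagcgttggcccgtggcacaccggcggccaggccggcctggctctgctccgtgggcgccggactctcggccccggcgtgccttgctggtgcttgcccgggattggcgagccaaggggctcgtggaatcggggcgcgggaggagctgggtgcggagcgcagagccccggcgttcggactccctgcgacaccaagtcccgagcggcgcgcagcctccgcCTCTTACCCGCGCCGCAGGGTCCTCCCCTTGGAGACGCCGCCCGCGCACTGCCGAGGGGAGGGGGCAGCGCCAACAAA
Col4a2: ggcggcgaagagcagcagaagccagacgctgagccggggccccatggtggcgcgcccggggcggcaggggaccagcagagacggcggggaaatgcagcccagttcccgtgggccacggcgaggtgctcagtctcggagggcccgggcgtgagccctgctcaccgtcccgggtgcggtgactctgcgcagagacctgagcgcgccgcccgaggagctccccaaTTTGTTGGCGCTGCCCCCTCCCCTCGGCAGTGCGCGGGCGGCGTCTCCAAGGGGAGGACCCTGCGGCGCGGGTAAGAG

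The starts of Col4a6, on the minus strand with the window chrX:141474027-141474326, and of Col4a5, on the plus strand with the window chrX:141475169-141475468, are 1343 bases apart, and these windows share 0 bases. Capitals mark the GC box GGGCGG, read on either strand, which is present 1 time in each.
Col4a6: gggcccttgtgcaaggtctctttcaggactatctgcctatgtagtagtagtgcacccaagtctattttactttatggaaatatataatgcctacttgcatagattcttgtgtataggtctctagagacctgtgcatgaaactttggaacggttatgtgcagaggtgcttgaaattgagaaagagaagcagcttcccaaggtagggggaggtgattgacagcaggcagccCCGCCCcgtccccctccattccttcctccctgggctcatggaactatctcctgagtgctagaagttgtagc
Col4a5: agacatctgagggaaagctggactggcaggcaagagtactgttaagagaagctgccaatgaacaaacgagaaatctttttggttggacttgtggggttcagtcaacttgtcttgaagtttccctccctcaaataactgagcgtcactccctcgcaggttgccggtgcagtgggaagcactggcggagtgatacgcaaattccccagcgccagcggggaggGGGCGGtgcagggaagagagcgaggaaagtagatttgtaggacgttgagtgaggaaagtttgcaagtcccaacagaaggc

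Col4a1, whose probe is spotted 10 times, was at 11.5 and 11.6 at 0 h, 12.99 and 12.82 at 6 h, 13.1 and 12.3 at 24 h, and 10.3 and 10.2 at 72 h. It was above 0 h on both arrays at 6 and 24 h without passing the test (log2 differences of 0.16 and 0.14, adjusted p = 0.076 and 0.0694). At 72 h it was lower by a log2 difference of -0.17 ± 0.05 (adjusted p = 0.0281). That call was lost with no filter on dim probes and on leaving out either array of 0, 6 or 72 h (adjusted p of 0.0534 to 0.126), and median scaling put the difference at 0.01 (adjusted p = 0.94). Between 24 and 72 h it fell, with a log2 difference of -0.31 ± 0.05 (adjusted p = 0.0118), a call lost without replicate 1 or without replicate 2 of 72 h. Col4a2 was at 11.4 and 10.01 at 0 h, 11.4 and 11.1 at 6 h, 13.1 and 11.5 at 24 h, and 10.4 and 10.4 at 72 h, and passed no test. Its log2 difference at 72 h was -0.04 ± 0.09 (adjusted p = 0.753), with the 72 h arrays between those of 0 h.

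Col4a5 was at 15.2 and 15.3 at 0 h, 13.7 and 13.2 at 6 h, 9.49 and 9.68 at 24 h, and 9.21 and 9.72 at 72 h. It was below 0 h on both arrays at 6 h without passing the test (log2 difference -0.18 ± 0.05, adjusted p = 0.0572). Col4a5 was 1.59-fold lower at 24 h (adjusted p = 0.000371) and 1.61-fold lower at 72 h (adjusted p = 0.0002). Col4a6 was at 15.4 and 15.1 at 0 h, 13.4 and 13.6 at 6 h, 9.75 and 9.17 at 24 h, and 8.07 and 8.22 at 72 h. Its differences ran close to those of Col4a5, at -0.18 ± 0.05 at 6 h (adjusted p = 0.0597), 1.61-fold lower at 24 h (adjusted p = 0.000339) and 1.88-fold lower at 72 h (adjusted p = 8.56e-05). At 6 h both were called lower under normexp correction, quantile normalization, an intensity trend in the variance prior, and a filter for probes well above background on all arrays, with adjusted p from 0.0159 to 0.049. A second, dimmer Col4a6 probe gave -0.29 at 24 h (adjusted p = 0.0478) and -0.74 at 72 h (adjusted p = 0.00131). Col4a4, of the kidney-type network, was dim, at 0.0391 to 0.0566 over all arrays, and passed no test against 0 h, with a log2 difference of 0.24 ± 0.10 at 72 h (adjusted p = 0.099).

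Both measured chains of the beaded filament collagen VI, a cell-surface-linked matrix protein of connective tissue, fell. Col6a1 (chr10:76171538-76171597) was at 98.2 and 106 at 0 h, 90.1 and 93.9 at 6 h, 49.2 and 46.1 at 24 h, and 40.2 and 43.7 at 72 h. The groups did not overlap, and Col6a1 was 2.14-fold lower at 24 h (adjusted p = 0.000272) and 2.43-fold lower at 72 h than at 0 h (adjusted p = 9.26e-05). Its neighbour on chromosome 10, Col6a2, was at 4.71 and 4.30 at 0 h, 4.31 and 3.70 at 6 h, 2.03 and 1.39 at 24 h, and 1.15 and 1.05 at 72 h. It was 2.68-fold lower at 24 h (adjusted p = 0.00253) and 4.08-fold lower at 72 h (adjusted p = 0.000476), while 6 and 0 h overlapped. Col6a4 and Col6a6 were too dim to test. The array holds 2 further detected probes under transcript names that it describes as type VI collagen, which the naming rule leaves out. The probe described as type VI alpha 3 was at 0.0329 and 0.0148 at 72 h, against 0.165 and 0.153 at 0 h. It was well above background on neither array at 72 h, on 1 of 2 at 24 h and on both at 0 and 6 h, through which it passed the filter. It was at least 4.64-fold lower at 72 h (adjusted p = 0.00582), a call that the filter favoured and that is a description. The probe described as type VI alpha 2, the chain of Col6a2, was lower by log2 differences of -1.13 at 24 h and -0.93 at 72 h (limma, adjusted p = 0.000504 and 0.000499). The Col6a2 probe gave -1.42 and -2.03, so the size at 72 h depended on the probe. From 24 to 72 h these probes went in opposite directions, at 0.21 and -0.61, and neither passed (adjusted p = 0.14 and 0.0709).

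The short-chain collagen VIII, known from the vessel wall and the cornea, had chains that moved in opposite directions. Col8a2 (chr4:125991441-125991500) was at 0.223 and 0.278 at 0 h, 0.164 and 0.188 at 6 h, 0.0336 and 0.0408 at 24 h, and 0.0249 and 0.0290 at 72 h. It was 6.73-fold lower at 24 h, where 1 of 2 arrays was well above background (adjusted p = 0.000207), and at least 8.11-fold lower at 72 h, where neither was (adjusted p = 7.01e-05), having passed the filter only through 0 and 6 h. Under normexp correction its log2 differences were -1.09 and -1.16 in place of -2.75 and -3.21. Col8a1 (chr16:57624471-57624530) was at 3.97 and 3.75 at 0 h, 3.77 and 3.52 at 6 h, 4.76 and 5.31 at 24 h, and 7.65 and 7.51 at 72 h. It overlapped with 0 h at 6 h and lay above it on every later array, 1.30-fold higher at 24 h (adjusted p = 0.00881) and 1.97-fold higher at 72 h (adjusted p = 0.000231). From 24 to 72 h Col8a1 rose again by a log2 difference of 0.59 ± 0.07 (adjusted p = 0.00641), and of the 11 members called in that step it was the gene whose call held under all 21 alternative settings.

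**Figure D3:**
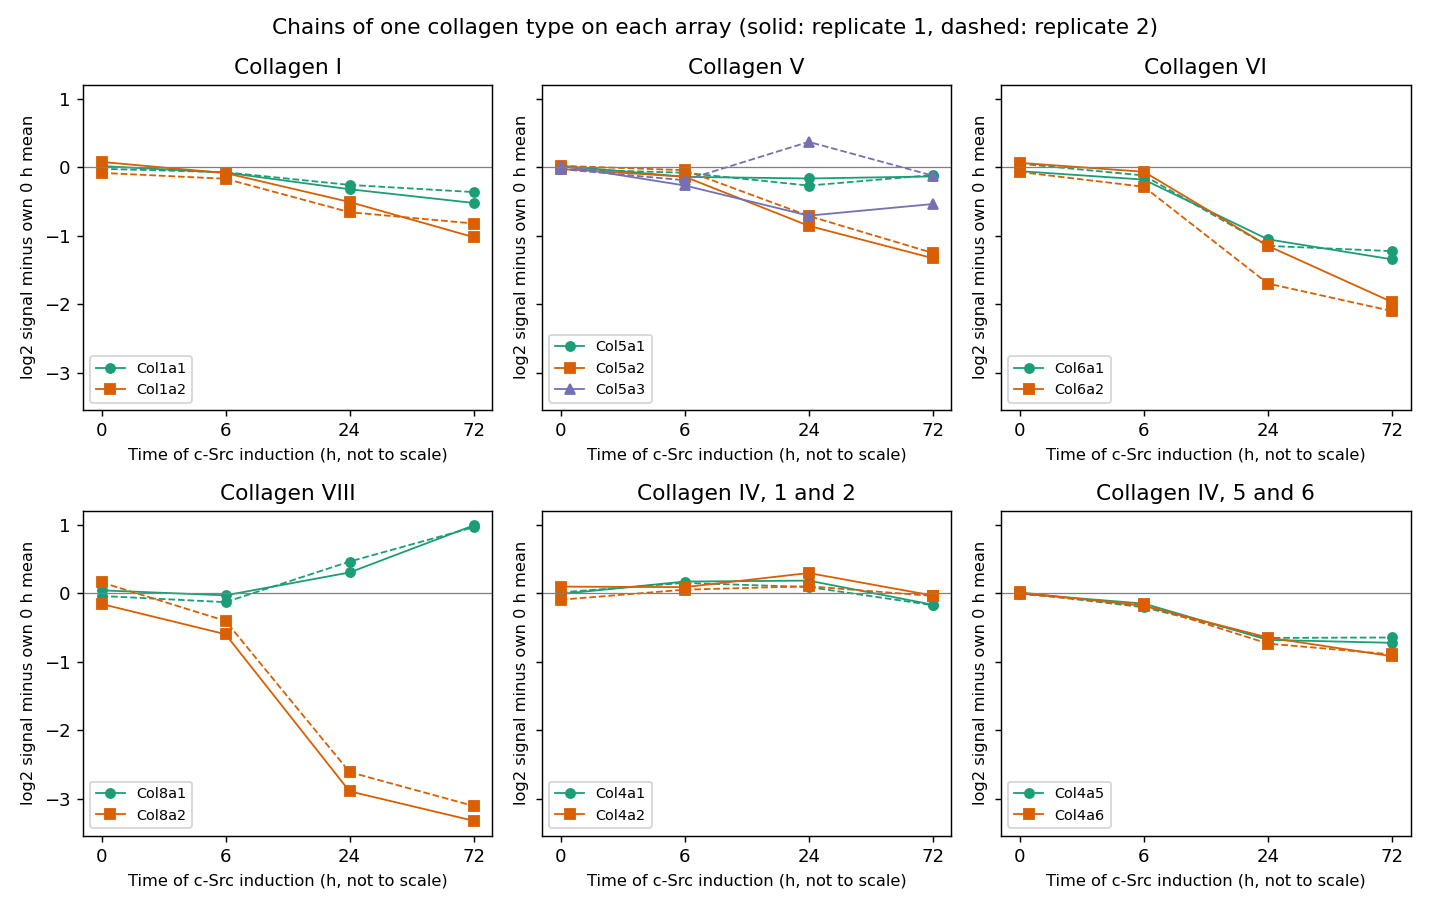
Log2 signal minus the gene's own 0 h mean, by time in hours (not to scale), for chains of the same collagen type, with a solid line for replicate 1 and a dashed line for replicate 2. Col8a1 ends above 0 and Col8a2 at -3.21, Col5a1 stays near 0 while Col5a2 ends at -1.29, Col4a1 and Col4a2 stay near 0, and the lines of Col4a5 and Col4a6 fall together.

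The anchoring fibril gene Col7a1, whose product ties the epidermal basement membrane to the dermis, rose. Its probe (chr9:108886861-108886920) was at 0.889 and 1.06 at 0 h, 1.08 and 1.23 at 6 h, 2.39 and 2.56 at 24 h, and 2.29 and 2.39 at 72 h. The 6 h arrays were above those of 0 h without passing the test (log2 difference 0.25 ± 0.11, adjusted p = 0.163), and Col7a1 was 2.55-fold higher at 24 h (adjusted p = 0.000479) and 2.41-fold higher at 72 h than at 0 h (adjusted p = 0.000333). The transmembrane chain Col17a1, a hemidesmosome component of epithelial cells, also rose but was dim, at 0.0538 and 0.0505 at 0 h, 0.0520 and 0.0493 at 6 h, 0.0715 and 0.0720 at 24 h, and 0.0848 and 0.0955 at 72 h. It was well above background on 1 of 2 arrays at 0 and 6 h, so that it passed the filter through 24 and 72 h, and was 1.38-fold higher at 24 h (adjusted p = 0.0046) and was 1.73-fold higher at 72 h (adjusted p = 0.000468). Normexp correction left log2 differences of 0.16 at 24 h (adjusted p = 0.0934) and 0.28 at 72 h (adjusted p = 0.00785), and an intensity trend left an adjusted p of 0.0852 at 24 h. The keratin genes Krt8 and Krt18, also of epithelial cells, were 1.90-fold and 1.27-fold higher at 72 h, whereas Krt19 was 2.75-fold lower (adjusted p = 0.00117, 0.0297 and 0.0138). The other transmembrane chain measured, Col23a1, was well above background on both arrays at 0 and 6 h and on neither at 24 and 72 h, with a log2 difference of -0.76 ± 0.31 at 72 h that did not pass (adjusted p = 0.0915). With the replicate number as a block Col23a1 was called lower at 24 and 72 h (limma, adjusted p = 0.0319 and 0.0235). It passed the filter only through 0 and 6 h, so these calls are descriptions.

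Of the FACIT genes 5 of 9 were measured, and 3 fell at 24 h and 3 at 72 h, 60% called at each time, against 41.5% and 52% of all genes. Col12a1, whose product binds collagen I fibrils (chr9:79446895-79446954), was at 0.391 and 0.349 at 0 h, 0.306 and 0.304 at 6 h, 0.0468 and 0.0813 at 24 h, and 0.116 and 0.114 at 72 h. It was 5.99-fold lower at 24 h (adjusted p = 0.000817) and 3.21-fold lower at 72 h than at 0 h (adjusted p = 0.00248), and both 72 h arrays lay above both 24 h arrays, a difference of 0.90 ± 0.24 that did not pass (adjusted p = 0.0508). Under normexp correction the log2 differences from 0 h were -1.21 and -0.93 in place of -2.58 and -1.68. Col16a1 was at 20.9 and 19.7 at 0 h, 18.8 and 18.7 at 6 h, 16.3 and 15.2 at 24 h, and 13.2 and 13.7 at 72 h, with every later array below those of 0 h. It was 1.29-fold lower at 24 h (adjusted p = 0.00475, and a log2 difference of -0.22 with an adjusted p of 0.163 under median scaling) and 1.51-fold lower at 72 h (adjusted p = 0.000575). Its other detected probes gave -0.32 and -0.52 at 24 h (adjusted p = 0.0606 and 0.0423) and -0.57 and -0.77 at 72 h (adjusted p = 0.00719 and 0.00866).

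Col14a1, a partner of collagen I fibrils in skin and tendon, had no call at 24 h and fell at 72 h. It was at 0.137 and 0.219 at 0 h, 0.125 and 0.126 at 6 h, 0.168 and 0.150 at 24 h, and 0.0678 and 0.0634 at 72 h, so 24 h overlapped with 0 h and 72 h lay below all other arrays. Its 0 h arrays were far apart. Without replicate 1 of 0 h the log2 differences were -0.80 at 6 h and -0.46 at 24 h, in place of -0.46 and -0.13. Over all settings the difference at 24 h ran from -0.46 to 0.21. The log2 difference at 72 h was -1.40 ± 0.21 (adjusted p = 0.00284), but -0.55 under normexp correction, -0.91 over the mean of its probes and -0.41 by its second probe, which did not pass (adjusted p = 0.221). Col20a1 was at 0.218 and 0.232 at 0 h, 0.176 and 0.173 at 6 h, 0.138 and 0.113 at 24 h, and 0.203 and 0.270 at 72 h. It was 1.80-fold lower at 24 h (adjusted p = 0.00775), by a log2 difference of -0.85 that normexp correction put at -0.43 and the second probe at -0.37 (adjusted p = 0.045), and at 72 h its arrays enclosed those of 0 h. Col9a2 was at 0.164 and 0.370 at 0 h and between 0.141 and 0.167 on the other arrays, and passed no test, with 0 h arrays further apart than those of any later time. Without replicate 1 of 0 h, the lower of these, Col9a2 was called lower at 6, 24 and 72 h, with log2 differences of -1.32, -1.16 and -1.32 (adjusted p = 0.00474, 0.00245 and 0.00104), so this array decides its calls.

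The multiplexin Col18a1, a basement membrane component whose end fragment is endostatin, was at 10.6 and 9.79 at 0 h, 10.1 and 10.1 at 6 h, 7.18 and 6.45 at 24 h, and 5.15 and 5.51 at 72 h. It overlapped with 0 h at 6 h and then was lower by a log2 difference of -0.58 ± 0.07 at 24 h (adjusted p = 0.00226) and 1.91-fold lower at 72 h (log2 difference -0.93 ± 0.07, adjusted p = 0.000287). A second Col18a1 probe gave smaller log2 differences, -0.29 at 24 h and -0.34 at 72 h (adjusted p = 0.0136 and 0.0053) and it is the brighter probe under normexp correction, where the gene was at -0.27 and -0.32.

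Between 6 and 24 h 3 members rose and 13 fell (59.3% called, against 26.2% of all genes, 12.6% higher and 13.6% lower). Col12a1 and Col8a2 had the lowest differences in that step, at -2.31 ± 0.24 and -2.25 ± 0.16, and Col7a1 was the highest at 2.14-fold higher (adjusted p = 0.00282, 0.00107 and 0.00221). Between 24 and 72 h 4 members rose (Col8a1, Col20a1, Col4a4 and Col17a1) and 7 fell (Col5a2, Col4a1, Col4a6, Col18a1, Col16a1, Col14a1 and Col27a1), 40.7% called against 21.7% of all genes, 10.8% higher and 10.9% lower. The number lower in this step was 0 without replicate 1 of 72 h, 1 without replicate 2 of 72 h, 2 without replicate 1 of 24 h and 4 without either array of 6 h. The number higher was 2 without replicate 1 or replicate 2 of 72 h. Col1a2, Col2a1, Col3a1, Col4a5, Col6a1, Col6a2, Col7a1, Col8a2 and Col12a1 were called between 6 and 24 h and not between 24 and 72 h, and the difference between the steps was not tested. In both steps the calls of Col8a2, Col27a1, Col17a1 and Col4a4, which passed the filter through some times only, are descriptions. Of the 21 members well above background on all arrays, 2 rose and 12 fell between 6 and 24 h (66.7% called). Between 24 and 72 h 3 of them rose and 8 fell (52.4% called). The share of all genes so filtered was not counted for these steps. The call of Col1a2 between 6 and 24 h was lost without replicate 1 of 6 h, replicate 2 of 6 h or replicate 2 of 24 h (limma adjusted p = 0.109, 0.0741 and 0.0976). Between 24 and 72 h the log2 difference of Col12a1 was 0.50 without replicate 1 of 24 h and 1.30 without replicate 2. That of Col6a2 was -0.88 without replicate 2 of 24 h, whereas the other probe described as its chain was not lower in this step.

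The 14 collagen genes too dim to test were Col4a3 of the kidney-type network, Col6a4, Col6a6, Col9a1, Col9a3, Col10a1, Col11a1, Col13a1, Col15a1, Col19a1, Col22a1, Col24a1, Col25a1 and Col28a1. Just inside the rule were Col23a1, well above background on 4 of 8 arrays, and Col11a2, Col27a1 and Col8a2, on 5. Just outside it were Col25a1, with 1 probe well above background on 4 arrays but never on both of a time, and Col9a1, on 2. Cartilage chains thus passed the rule in part: Col2a1, Col9a2, Col11a2 and Col27a1 were measured, and Col9a1, Col9a3, Col10a1 and Col11a1 were not.

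Beyond their names, some members are neighbours in the genome, and short motifs were counted in the members' start regions. In the RefSeq gene order 6 pairs of members are neighbours: Col3a1 and Col5a2, Col4a4 and Col4a3, and Col9a1 and Col19a1 on chromosome 1, Col6a2 and Col6a1 on chromosome 10, Col4a1 and Col4a2 on chromosome 8, and Col4a6 and Col4a5 on X. Start windows were found for 22 of the 27 measured genes, 24 windows in all. The GC box GGGCGG, searched on both strands, was in 75% of the members' windows and in 35.66% of all 32851 windows. The CCAAT box was in 37.5% of the members' windows and 37.41% of all, TATAAA in 12.5% and 13.62%, and the AP-1 type motif TGANTCA in 4.167% and 7.808%. No test was made of these shares, and a match is a description of letters in the window. The members' windows include those of Col4a1 and Col4a2, which hold 78 bases in common, and all windows were not limited to genes detected here.

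The genes that act on collagen were counted from fixed lists of proteins known to act at each step, chosen with earlier results of these data in view. Of the 30 measured genes for hydroxylation, folding, export, trimming and cross-linking of collagen, 5 rose and 16 fell at 24 h, and 6 rose and 12 fell at 72 h, with median log2 differences of -0.21 and -0.10. These were 70% and 60% called, against 41.5% and 52% of all genes. Median scaling left 6 lower at 24 h. The lysyl oxidase gene Lox, whose product cross-links fibrils, was 2.27-fold lower at 24 h and 3.53-fold lower at 72 h (adjusted p = 0.000106 and 2.2e-05), and Loxl1 was 1.79-fold and 2.20-fold lower (adjusted p = 0.000161 and 4.27e-05). Fkbp14, a folding enzyme gene of the endoplasmic reticulum, was 1.77-fold and 1.81-fold lower at those times (adjusted p = 0.000312 and 0.000153). In the other direction Pcolce2, an enhancer of procollagen C-propeptide cleavage, was 3.73-fold higher at 24 h and 3.09-fold higher at 72 h (adjusted p = 8.79e-05 and 5.93e-05). At 6 h 3 of the list rose and 0 fell, 10% called, against 17.6% of all genes and 10.3% higher: Adamts14, which trims the procollagen N-propeptide, Pcolce2, and the prolyl hydroxylase gene P4ha2, with log2 differences of 0.53, 0.32 and 0.25 (adjusted p = 0.00167, 0.0337 and 0.0248).

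Of 13 measured genes for proteins that sit on or beside fibrils, 0 rose and 6 fell at 24 h, and 0 rose and 11 fell at 72 h, with a median of -0.98 at 72 h. At 24 h the 46.2% called was near the 41.5% of all genes, and at 72 h it was 84.6%, against 52%. Leaving aside Lum, which was not well above background at 72 h, the lowest at both times were the fibril-binding proteoglycan genes Fmod and Ogn. Fmod was 4.45-fold lower at 24 h and 8.92-fold lower at 72 h (adjusted p = 0.000272 and 5.85e-05), and Ogn was 2.60-fold and 3.24-fold lower (adjusted p = 9.78e-05 and 3.39e-05). Lum, not well above background on either array at 72 h and on 1 of 2 at 0 h, was at least 1.49-fold lower at 72 h (adjusted p = 0.0236), and Emilin1 was 2.11-fold lower (adjusted p = 0.00133). Matn2 and Tgfbi fell at 24 h by log2 differences of -0.69 each (adjusted p = 0.00301 and 0.00123). At 6 h the thrombospondin gene Thbs1 was the member of the list called, 1.64-fold higher (adjusted p = 0.00341).

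Of 8 measured collagen receptor genes 1 rose and 3 fell at 24 h, and 2 rose and 5 fell at 72 h, that is 50% and 87.5% called, against 41.5% and 52% of all genes. Itga11, the fibroblast receptor for collagen I, was 1.71-fold lower at 6 h, 1.95-fold lower at 24 h and 1.98-fold lower at 72 h (adjusted p = 0.0182, 0.0035 and 0.00228). The discoidin receptor genes were opposite at 72 h, with Ddr1 2.04-fold lower and Ddr2 1.64-fold higher (adjusted p = 0.000105 and 0.000129). The integrin chain Itga1 was 2.01-fold lower at 24 h and 1.74-fold lower at 72 h (adjusted p = 0.00808 and 0.0146), and its partner Itgb1 was 1.24-fold higher at 24 h (adjusted p = 0.0332). Of 6 measured collagenase and gelatinase genes 2 rose and 0 fell at 6 h, 2 rose and 1 fell at 24 h, and 2 rose and 3 fell at 72 h. The shares called were 33.3%, 50% and 83.3%, against 17.6%, 41.5% and 52% of all genes. Mmp13, a fibrillar collagen cleaving enzyme, was 1.98-fold higher at 6 h, 5.04-fold higher at 24 h and 1.64-fold higher at 72 h (adjusted p = 0.00451, 0.000136 and 0.00272), and Mmp14 was 1.31-fold higher at 6 h (adjusted p = 0.0181). Mmp8 was 1.80-fold higher at 24 h and 2.35-fold lower at 72 h, where 1 of 2 arrays was well above background (adjusted p = 0.00641 and 0.00118). It passed the filter through earlier times only, so the call of Mmp8 at 72 h is a description. Mmp15, well above background on 1 of 2 arrays at each of 24 and 72 h, was 2.24-fold lower at 24 h and 3.06-fold lower at 72 h (adjusted p = 0.0294 and 0.00735), and the cathepsin gene Ctsk was 2.61-fold lower at 72 h (adjusted p = 0.00332).

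**Figure D4:**
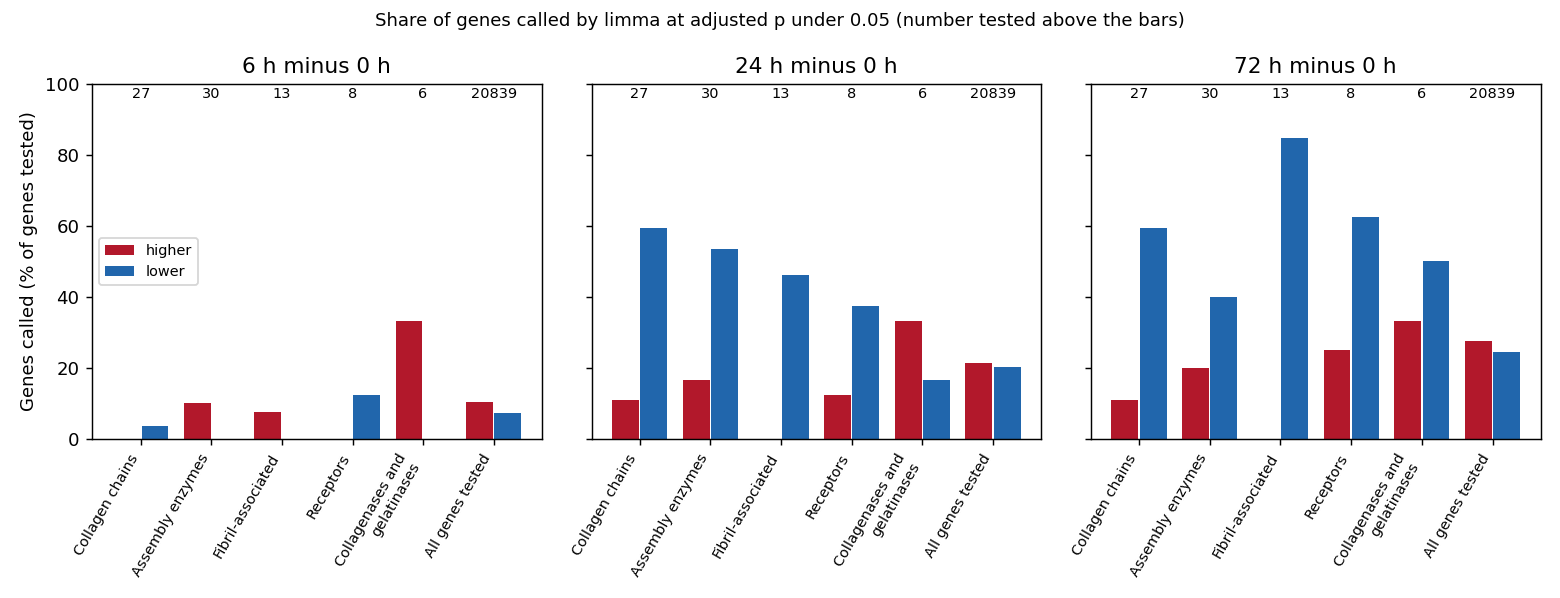
Percent of tested genes called higher or lower than at 0 h by limma at an adjusted p under 0.05, for collagen chains, the lists of genes acting on collagen and all 20839 genes tested, with the number tested above the bars. The bars for lower calls of collagen chains are at 59.3% at 24 and at 72 h, against 20.1% and 24.6% of all genes.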

How the data were processed

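RNA of Csk-/- MEFs with inducible c-Src was measured at 0, 6, 24 and 72 h on 2 one-colour arrays per time. Per the labels' protocols 500 ng of total RNA was labelled with Cy3. Per the file headers the arrays were quantified with Agilent Feature Extraction 10.5.1.1 and annotated on mm9. The submitters' processing notes name version 10.7.3.1. Per the file headers, the deposited processed signal is an intensity on a linear scale from which background and trends across the array had been removed. The value table holds this intensity rounded, within 0.497%.

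The log2 of the deposited processed signal was taken and the 75th percentile of the 59305 spots of each array outside its controls was subtracted. Outlier spots were left out (1 Col4a1 spot on a 72 h array among the members) and spots of a probe were averaged. Probes well above background on both arrays of at least 1 time were kept, 28609 of 55681. Counts were also made over genes well above background on all arrays. The brightest kept probe stood for its gene, which gave 20839 genes. Gene names came from the files, updated for 2602 probes by symbol and 492 by synonym and for 26582 by accession through a RefSeq table, and 26005 kept the file's name. limma 3.58.1 in R 4.3.3 fitted 4 means over all 8 arrays (4 residual degrees of freedom, prior 1.71, median standard error of a difference 0.075), with Benjamini-Hochberg adjustment over all genes and a threshold of 0.05. The number of arrays limits the precision. The fit was tested on simulated data. Figures were drawn with matplotlib 3.10.9.

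The members and lists were chosen with earlier results of these data known. Every measured member is named. Array values are given for types I, III, IV, V and VI and for members called against 0 h with a log2 difference of at least 0.58, and up to 4 called genes per list and comparison are named. Sequences are RefSeq start windows of GRCm38.p6. Alternatives were normexp correction (offset 50), median or quantile normalization, other filters and probe choices, a floor, an intensity trend, fits of the compared times, a replicate block, and leaving out each array.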

Additional observations from a re-analysis of the deposited data

How the results depend on the processing

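Of the 39 calls of collagen genes against 0 h, 32 held under all 21 alternative settings and 7 were lost under at least 1, namely Col2a1 at 6 h, Col1a1, Col1a2, Col5a1, Col16a1 and Col17a1 at 24 h, and Col4a1 at 72 h, which median scaling put at a log2 difference of 0.0095. Of 27 calls between later times 13 held under all. The counts against 0 h ranged from 2 to 4 higher and 12 to 17 lower at 24 h, and from 2 to 4 higher and 14 to 17 lower at 72 h, against 3 and 16 in the main fit at each time. The number lower at 6 h (1 in the main fit) was 0 with median scaling, 2 with a common floor or arrays of the compared times only, and 3 with normexp correction, quantile normalization, an intensity trend or probes well above background on all arrays, and 1 to 3 on leaving out an array. The number higher at 6 h (0) was 1 with a common floor or an intensity trend. From 24 to 72 h the number higher (4) was 1 with no filter on dim probes, 2 with the compared times only and 2 to 3 on leaving out an array. The number lower (7) was 3 with median scaling, 0 with no filter, 1 with the compared times only, 12 with a trend, and 0 to 8 on leaving out an array. The cause was not tested, except that fewer samples enter the fits with arrays left out.

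Median scaling put 76.9%, 74.7% and 75.1% of all calls higher at 6, 24 and 72 h, against 58.8%, 51.5% and 52.7% in the main fit. The replicate number is also the array's row on the slide at every time, replicate 1 had more spots well above background at every time (52.1% to 54.7%, against 49.9% to 51.5% for replicate 2), and correlations of same-numbered deviations between times were 0.056 to 0.171, all above 0. With a replicate block the number lower at 6 h was 2, and all 39 and 27 calls were kept. Added were Col8a2 at 6 h, Col23a1 at 24 and 72 h and from 6 to 24 h, and Col6a2 and Col8a2 from 24 to 72 h (limma, adjusted p from 0.00781 to 0.0449). Those of Col23a1, and of Col8a2 from 24 to 72 h, are descriptions, as both genes passed the filter only through 0 and 6 h. For the related lists 66 of 504 recomputed counts moved by over 1.5 times. Normexp correction adds an offset of 50, which makes log2 differences of dim probes smaller, and for Col18a1 it also changed the brightest probe. How much of each change under this setting came from either was not tested.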
